A study of Mus musculus with 22 samples.

Results

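The clustered histone genes are the genes whose deposited symbol begins with Hist1h, Hist2h, Hist3h or Hist4h, the linker histones Hist1h1 included. The rule found 62 such genes among the 18487 genes of the table. RNA had been measured in 22 libraries of E14, a mouse embryonic stem cell line grown in serum with LIF. There were 2 libraries for each of 10 compounds that act on chromatin and 2 for the group labelled NC, which named no compound and was taken as the control. Doses, exposure times and the cultures of origin were not among the labels, so p-values measure the spread between libraries, which may be technical.

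By general knowledge, MS023 inhibits type I protein arginine methyltransferases, Bromosporine occupies the bromodomains that read acetylated lysine, and DZNep blocks S-adenosylhomocysteine hydrolase and with it many methylation reactions. Valproate inhibits histone deacetylases, CPTH2 and Garcinol inhibit acetyltransferases, Chaetocin and UNC0379 inhibit lysine methyltransferases, and IOX1 inhibits 2-oxoglutarate oxygenases. OICR is given by that label alone. NC and all compound groups share the cell line and the library kit, and each compound was compared with the same 2 NC libraries. Each comparison asks which transcripts differ between the compound and NC.

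Histone genes supply the core proteins H2A, H2B, H3 and H4, around which DNA is wrapped, and the linker H1. Most of the clustered genes are copied in S phase, have no introns, and end their messenger RNA in a stem-loop that is cut and left without a poly(A) tail. SLBP binds that stem-loop, and NPAT, FLASH (Casp8ap2), LSM10 and LSM11 serve the transcription and cutting of these RNAs. Some clustered genes also make a longer RNA that passes the stem-loop and ends at an ordinary poly(A) signal. The libraries were made with oligo-dT beads, so the values reflect polyadenylated histone transcripts and not the whole histone messenger RNA of the cell.

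The 62 genes comprised 5 of H1, 17 of H2A, 17 of H2B, 11 of H3 and 12 of H4. In GENCODE M21 (mm10), 51 with a Hist1 symbol lay on chromosome 13, 8 of Hist2 on chromosome 3, 2 of Hist3 on chromosome 11 and 1, Hist4h4, on chromosome 6. Of the Hist1 genes, Hist1h2al lay apart from the cluster, 27438320 bases from Hist1h1a, the nearest member. The annotation listed 60 as protein-coding and 2, Hist1h2aj and Hist1h2al, as pseudogenes. A stem-loop of the histone consensus was found in at least 1 annotated transcript of 42 of the 62 genes. The most frequent core, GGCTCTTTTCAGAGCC, was present in 24 of them, and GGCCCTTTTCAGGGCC and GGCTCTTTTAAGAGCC stood in 6 and 5.

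Stretches of 30 bases from 6 genes are printed to show both ways in which the annotated transcripts end, with the stem-loop core or the poly(A) signal in capitals and each read 5′ to 3′ on the strand of the gene. Hist1h3c, Hist1h2bk and Hist1h2ag fell with MS023, Hist1h1c and Hist3h2a rose with Bromosporine, and Hist2h2be fell with Valproate and DZNep.
Hist1h3c stem-loop (H3, chr13:23745040-23745069, minus strand): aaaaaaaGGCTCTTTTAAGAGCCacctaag
Hist1h2bk stem-loop (H2B, chr13:22036293-22036322, plus strand): caccaaaGGCTCTTTTAAGAGCCactaaac
Hist1h2ag stem-loop (H2A, chr13:22042476-22042505, minus strand): caacaaaGGCTCTTTTCAGAGCCacctaac
Hist1h1c stem-loop (H1, chr13:23739505-23739534, plus strand): tccaaaaGGCTCTTTTCAGAGCCaccactc
Hist1h1c poly(A) signal (chr13:23740330-23740359, plus strand): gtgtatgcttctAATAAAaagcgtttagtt
Hist3h2a stem-loop (H2A, chr11:58955165-58955194, plus strand): caccaaaGGCTCTTTTCAGAGCCacccaca
Hist3h2a poly(A) signal (chr11:58956785-58956814, plus strand): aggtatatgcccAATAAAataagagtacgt
Hist2h2be poly(A) signal (H2B, chr3:96223705-96223734, plus strand): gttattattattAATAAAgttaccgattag
Hist1h3c, Hist1h2bk and Hist1h2ag end 74, 30 and 23 bases after the stem-loop. The transcripts of Hist1h1c and Hist3h2a run on for 840 and 1643 bases past theirs and end 20 and 28 bases after a poly(A) signal. No stem-loop was found in Hist2h2be, whose transcript ends 16 bases after its poly(A) signal.

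The genes were sorted by these ends, a split that was chosen after the values had been seen. A poly(A) signal (AATAAA or ATTAAA) lay within 40 bases of the annotated 3′ end in 15 genes, and 12 of these also held the stem-loop further upstream. A stem-loop lay within 100 bases of the 3′ end in 19 others. The remaining 28 had neither element there. Of these, 10 have a model that stops at the stop codon, so for them the annotation does not show how the RNA ends. The median longest transcript was 1560 bases for poly(A)-end genes, 508 for stem-loop-end genes and 553 for the rest.

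The 250 bases before and 50 after the start were read for the 54 genes found in the RefSeq promoter table (GRCm38.p6), on both strands. The letters TATAAA stood in 31 of the 54 promoters (57.4%), against 14.2% of all 27025 promoters in the table. CCAAT stood in 46 (85.2%), against 37.9%. The octamer ATTTGCAT was present in 11 (20.4%), against 1.75%, and these were 6 of 14 H2A and 5 of 15 H2B promoters, with none among 5 H1, 9 H3 and 11 H4 promoters. GGGCGG was about as common in histone promoters (37.0%) as in all promoters (35.9%). The promoters of H2A and H2B genes often face each other, and a single octamer can then be read in both windows.

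The values are read counts that the authors brought to 1 distribution across libraries, so that the median was 409 and the totals lay between 38403767 and 38419709 in all libraries. The totals do not show the depth, which is unknown for single libraries, and no counting interval is given. The histone genes together held 0.00268 to 0.0119% of a library's total. Of the 62 genes, 43 reached a value of 10 in at least 2 libraries and were tested, and 19 did not, with no value above 17. A gene could pass through 1 group in which it was high, so counts over the 43 are descriptions of those genes alone, and 4 of them had both NC values under 10. Embryonic stem cell markers were high throughout, with Pou5f1, a regulator of pluripotency, between 25663 and 39262. Summed values of the 8 stem cell markers were between 171573 and 274170, against 219 to 739 for markers of primitive endoderm, 333 to 1279 for trophoblast, 12 to 702 for fibroblasts and 0 to 598 for 2-cell-like cells.

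Histone genes resemble each other, which limits what a value of a single copy means. The share of a gene's 31-base stretches that also occur in transcripts of other genes ran from 0.281 to 100%, with a median of 61.0%, and was at least 50% in 39 of the 62 genes. In 20 genes an exon overlapped an exon on the opposite strand, and in 6 one on the same strand. Whether the counting used strand was not given in the sources used here, so reads of overlapping genes cannot be told apart. Sums over a class, which depend less on how reads were split between copies, are therefore given beside single genes.

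Per kilobase of transcript, Hist1h2bc was the most abundant member, with a mean normalised count of 268 per kb over the 22 libraries. The H2A genes Hist1h2ap (199 per kb) and Hist1h2ad (186 per kb) and the H3 gene Hist1h3c (170 per kb) followed. In each class the gene with the highest mean count was Hist1h1c (102 per kb) for H1, Hist3h2a (97.1 per kb) for H2A, Hist1h2bc for H2B, Hist1h3c for H3 and Hist4h4 (8.89 per kb) for H4. Median levels of the tested genes were 29.5 per kb for poly(A)-end genes, 46.8 per kb for stem-loop-end genes and 35.7 per kb for the rest, with ranges that overlapped widely.

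All libraries entered a single limma fit of log2(value + 1). The word called is used for genes that changed more than 2-fold at an adjusted p (Benjamini-Hochberg) under 0.05. The fold changes are on that log2 scale, which understates changes of low genes. Over the 11 groups, the F test found a difference in 11 of the 43 genes (25.6%), against 29.7% of all genes tested. In this fit the share of histone genes that varied was thus near that of other genes. The lowest adjusted p of this test was 0.000152 for Hist3h2a, followed by 0.000429 for Hist2h2be and 0.00288 for Hist1h2bk. Group means of Hist3h2a ran from 18.5 with DZNep to 531 with Bromosporine, and those of Hist1h2bk from 9.5 with MS023 to 110.5 with Bromosporine.

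**Figure D1:**
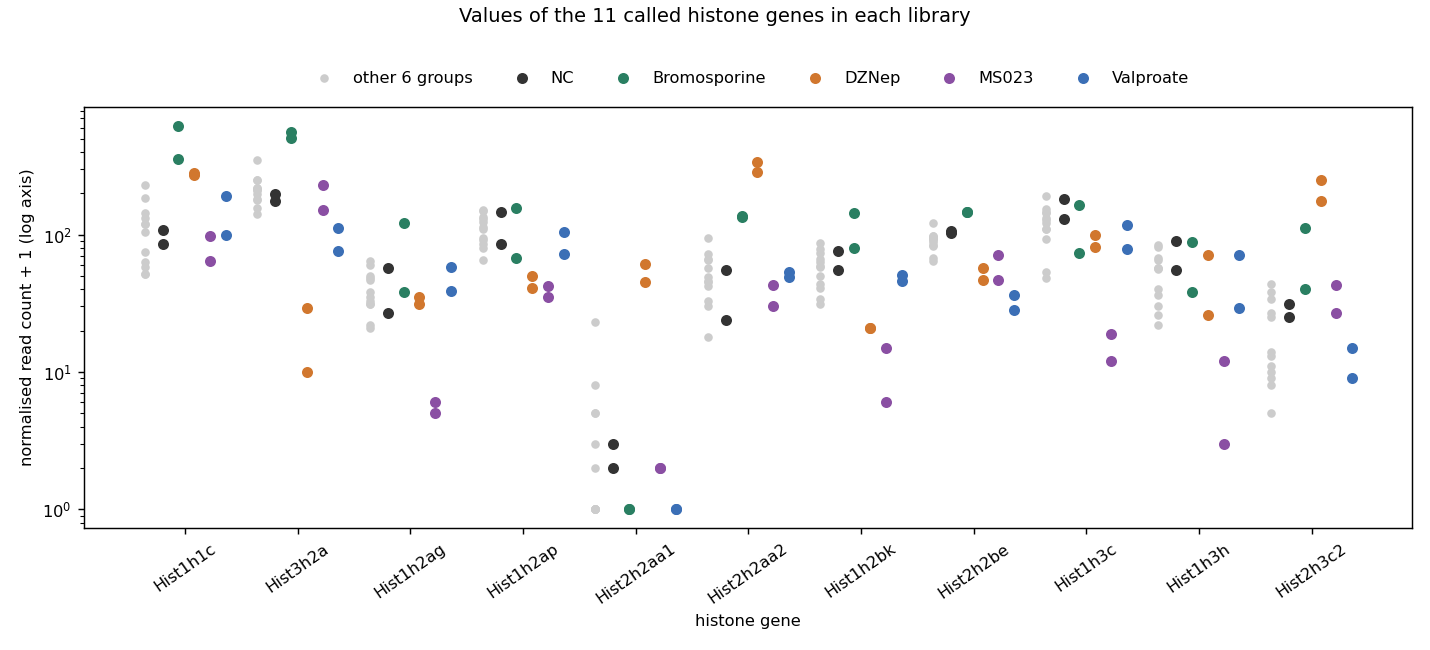
Normalised read count plus 1 (log axis) of the 11 histone genes called with at least 1 compound, 1 point per library, with the other 6 groups in grey. MS023 lies lowest for Hist1h3c, Hist1h3h, Hist1h2ag and Hist1h2bk, DZNep lowest for Hist3h2a and highest for the Hist2 genes Hist2h2aa1, Hist2h2aa2 and Hist2h3c2, and Bromosporine highest for Hist1h1c and Hist3h2a.

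With MS023, the H3 genes Hist1h3c and Hist1h3h, the H2A gene Hist1h2ag and the H2B gene Hist1h2bk fell, and no histone gene was called higher. These 4 of 43 genes (9.30%) compare with 0.585% of all genes called lower and 0.388% called higher. In 24 of the 43 genes both MS023 libraries lay below both NC libraries, against 23.6% of all genes, and in 0 both lay above, against 21.8%. Over all 62 genes, tested or not, the MS023 mean was lower than the NC mean in 46, higher in 14 and equal in 2. That count was not made over all genes of the table, and copies that share sequence are not independent in it. It is a description only.

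Hist1h3c (chromosome 13, 23744973 to 23745602) encodes a histone H3. Its values were 128 and 179 in NC and 11 and 18 with MS023, while the 18 libraries of the other compounds lay between 47 and 189. Both MS023 libraries were thus lower than every other library. The log2 change was -3.34 (SE 0.52, limma adjusted p = 0.00704). Hist1h3h, another H3 gene (chromosome 13, 21717659 to 21718069), had 54 and 89 in NC and 2 and 11 with MS023. Its log2 change was -3.55 (SE 0.72, limma adjusted p = 0.0230). Of its 31-base stretches, 94.2% occur in other genes, 85.3% in Hist1h3i alone, so its values and those of Hist1h3i (25 and 28 in NC, 5 and 4 with MS023) are uncertain as single copies.

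Hist1h2ag, which encodes an H2A (chromosome 13, 22042460 to 22042944), had 26 and 56 in NC and 4 and 5 with MS023. The groups did not overlap, and the log2 change was -2.84 (SE 0.52, limma adjusted p = 0.0149). Hist1h2bk, which encodes an H2B (chromosome 13, 22035870 to 22036345), had 54 and 75 in NC and 14 and 5 with MS023. The log2 change was -2.77 (SE 0.46, limma adjusted p = 0.00918). Both genes lie in the same stretch of the Hist1 cluster, with Hist1h4i, an H4 gene with a poly(A) end, between them. Hist1h4i had 5 and 16 in NC and 10 and 14 with MS023, so its groups overlapped. The number of called genes was 0 without either NC library, 1 without MS023 replicate 1 and 2 without MS023 replicate 2, and 0 when only the 4 libraries of MS023 and NC were fitted. Under the alternatives the log2 changes of the 4 genes lay between -4.55 and -1.75. Most alternatives could not turn the sign, since the MS023 and NC libraries did not overlap in these genes.

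The H3 sum was 316 and 435 in the NC libraries and 86 and 94 with MS023, 24.0% of the NC mean. The MS023 libraries had the lowest H3 sums of all 22, and those of the other compounds lay between 127 and 610. The H2A sum was 588 and 769 in NC and 348 and 388 with MS023, 54.2% of the NC mean and likewise without overlap. The H2B sum was 524 and 722 in NC and 456 and 485 with MS023, below both NC libraries but closer to them. The sums of H1 (113 and 139 in NC, 77 and 113 with MS023) and H4 (84 and 147 in NC, 64 and 88 with MS023) touched or overlapped. With the most abundant gene of each class left out, the log2 ratios were -1.56 for H3 in place of -2.06, -1.46 for H2A in place of -0.88 and -0.88 for H2B in place of -0.41. Without Hist3h2a and Hist1h2bc, the difference was thus larger for H2A and H2B.

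**Figure D2:**
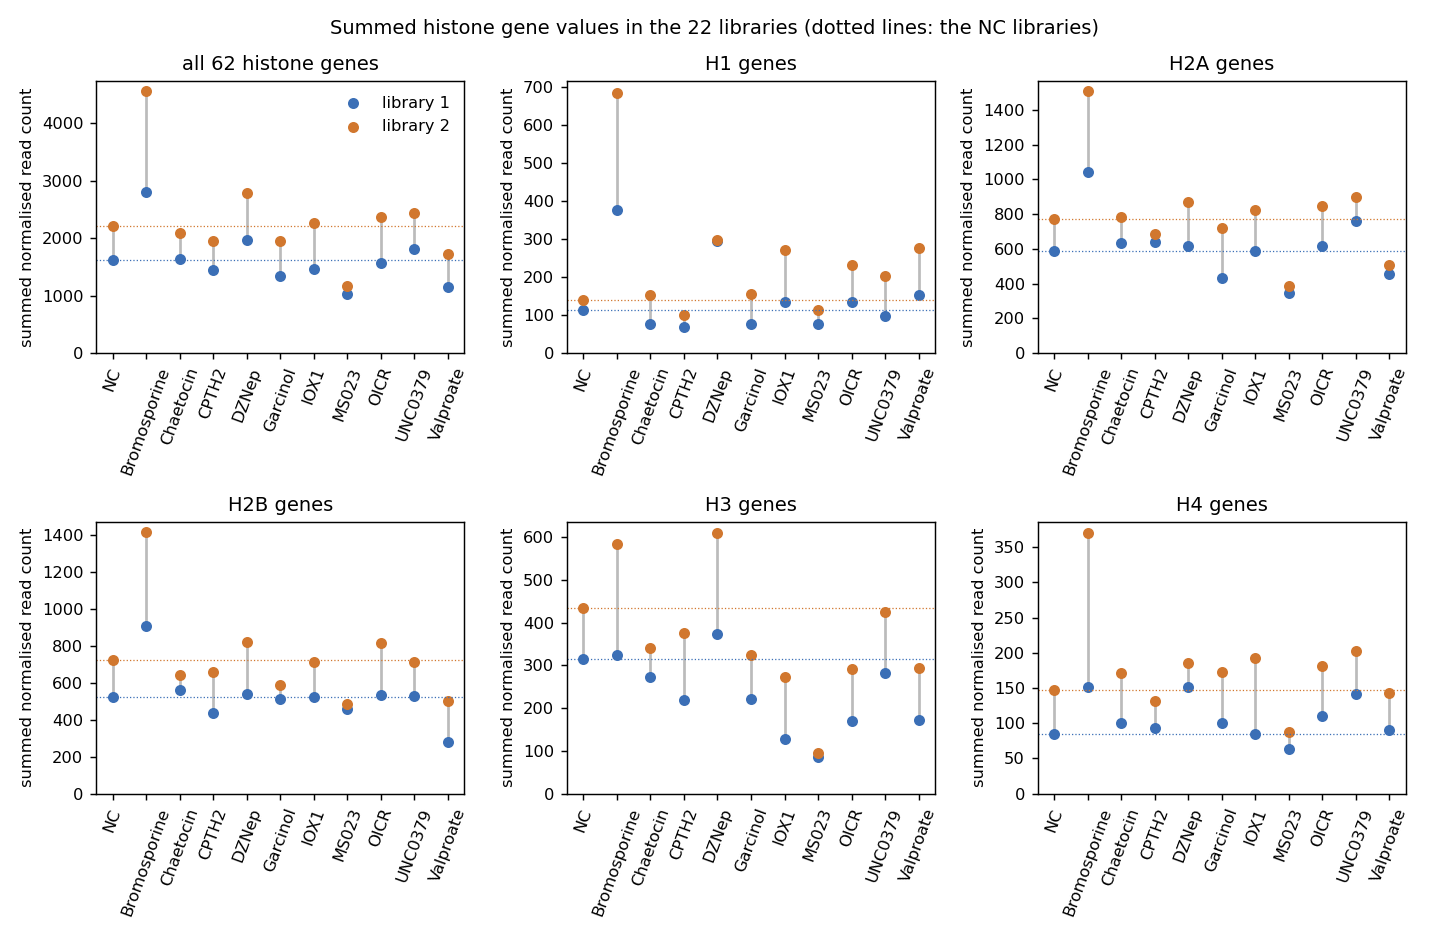
Summed normalised read count of all 62 histone genes and of each class in the 22 libraries, in blue for replicate number 1 and orange for number 2, with dotted lines at the NC libraries. With MS023 the H3 sum lies at 86 and 94, below all other libraries, and with Bromosporine the H1 sum lies at 377 and 684, above all others.

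The size of the difference with MS023 varied with the annotated 3′ end, a split for which no test was made. The median log2 change of the 43 tested genes was -1.04, against -0.01 for all genes. Over the 15 that share under 50% of their 31-base stretches it was -0.28, with 0 called by limma and 3 at an unadjusted p under 0.05. It was -1.90 for the 13 stem-loop-end genes, of which 13 had a negative value. In 10 of these both libraries lay below both NC libraries, against 23.6% of all genes. For the 13 poly(A)-end genes the median was -0.18, with 9 negative and 4 positive values. In 2 of those both libraries lay below, against the same 23.6%. The 17 genes with neither element had a median of -1.37. The summed value of the stem-loop-end genes was 529 and 752 in NC and 182 and 145 with MS023, 25.5% of the NC mean. That of the poly(A)-end genes was 560 and 633 in NC and 412 and 590 with MS023, and overlapped.

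Shared sequence runs along with the ends, since all 13 tested stem-loop-end genes share at least 50% of their 31-base stretches and 10 of the 13 poly(A)-end genes share less. Among genes with neither element, the median log2 change with MS023 was -1.38 for the 12 that share at least 50% and -1.37 for the 5 that share less. Among poly(A)-end genes it was -0.70 for the 3 that share at least 50% and -0.14 for the 10 that share less. The adjacent genes Hist1h1c and Hist1h3c, 4605 bases apart, differ in both ways, with 11.4% and 55.2% of their stretches shared. They are an example in single values and do not separate the 3′ end from shared sequence. Hist1h1c, a poly(A)-end H1 gene, had 84 and 107 in NC and 63 and 96 with MS023, while Hist1h3c went from 128 and 179 to 11 and 18. Hist1h2bc, the most abundant member, had 224 and 348 in NC and 280 and 295 with MS023, a log2 difference of 0.04 (SE 0.46, limma adjusted p = 0.997). Hist1h4b, the H4 gene with the smallest F-test p, had 7 and 20 in NC and 3 and 2 with MS023. Its log2 difference of -1.90 did not pass the test (SE 0.65, limma adjusted p = 0.167).

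**Figure D3:**
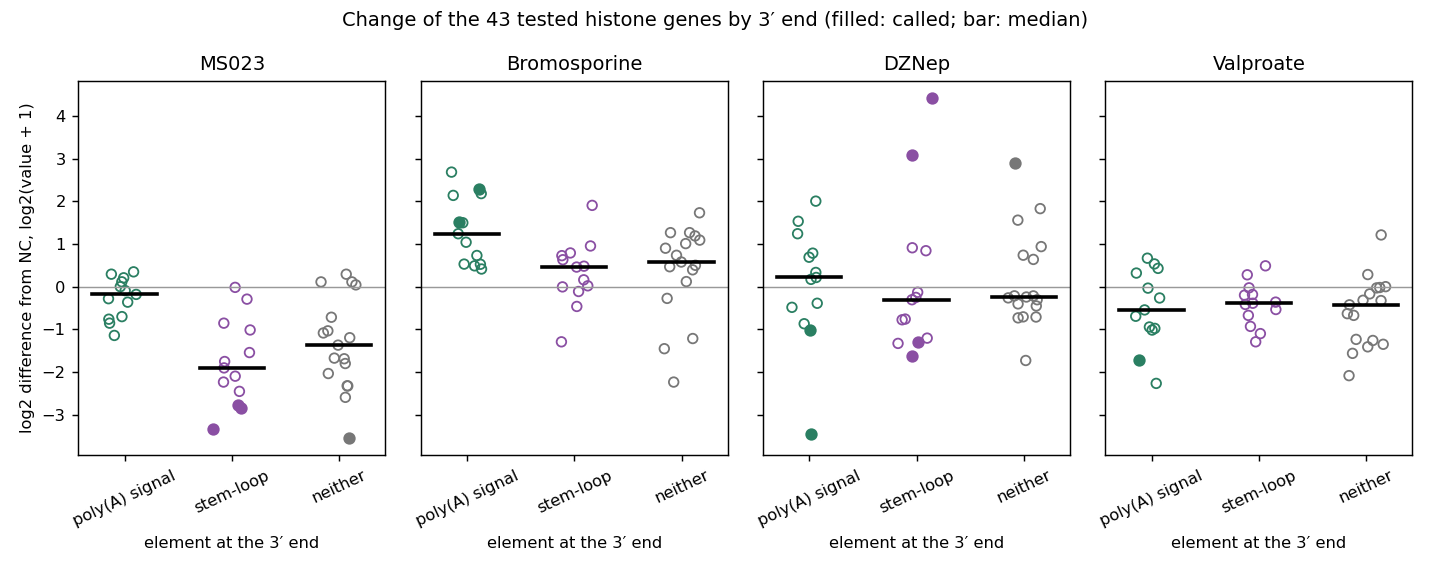
Log2 difference from NC on the log2(value + 1) scale for the 43 tested histone genes, by the element at the annotated 3′ end, with 1 point per gene, filled where called, and a bar at the median. With MS023 the medians are -0.18 for poly(A)-end genes and -1.90 for stem-loop-end genes, and with Bromosporine they are 1.24 and 0.46.

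The genes that serve histone RNA did not pass the test with MS023, where 15% of all genes had an unadjusted p under 0.05. In the list of 24 genes for histone gene transcription and 3′ end processing, 0 were called by limma and 3 had an unadjusted p under 0.05, with a median log2 change of -0.03. In the list of 12 genes for general cleavage and polyadenylation, 0 were called and 3 had an unadjusted p under 0.05. In the list of 27 genes of S phase and replication, 0 were called and 2 had an unadjusted p under 0.05, with a median log2 change of -0.14. Slbp, whose protein binds the stem-loop, had 2555 and 3544 in NC and 3985 and 3042 with MS023. Npat, the coactivator of clustered histone genes, had 3615 and 3419 in NC and 3696 and 3530 with MS023. Lsm11, a subunit of the U7 particle that cuts histone RNA, had 596 and 497 in NC and 361 and 359 with MS023. The Lsm11 groups did not overlap, with a log2 difference of -0.59 (SE 0.17, limma adjusted p = 0.105). Cdk9, a kinase of transcription elongation, had 2868 and 2885 in NC and 3707 and 3005 with MS023. Fewer cells in S phase and less polyadenylated RNA per cell cannot be told apart in these bulk libraries. Of the 19 tested markers of other cells 0 were called by limma with MS023, and 3 had an unadjusted p under 0.05. Summed trophoblast markers were 944 and 872 against 333 and 588 in NC, fibroblast markers 84 and 105 against 54 and 67, and the embryonic stem cell markers 186847 and 171573 against 204835 and 205617. These 3 sums did not overlap NC, and their part in the histone values was not tested.

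With Bromosporine, Hist1h1c and Hist3h2a rose, and no histone gene was called lower. These 2 of 43 genes (4.65%) compare with 0.573% of all genes called higher and 2.77% called lower. In 17 of the 43 genes both Bromosporine libraries lay above both NC libraries, against 26.4% of all genes, and in 3 both lay below, against 23%. Among the 17 is Hist1h4k, which passed the filter only through Bromosporine (10 and 16). Over all 62 genes, the Bromosporine mean was higher than the NC mean in 48, lower in 10 and equal in 4. That count includes low genes that were not tested and has no counterpart over all genes, so it is likewise a description.

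Hist1h1c (chromosome 13, 23738808 to 23740367), which encodes a linker histone H1, had 84 and 107 in NC and 351 and 619 with Bromosporine. Every other library lay at 281 or lower. The log2 change was 2.29 (SE 0.57, limma adjusted p = 0.0335). Hist3h2a (chromosome 11, 58954685 to 58956830), which encodes an H2A, had 197 and 175 in NC and 503 and 559 with Bromosporine, and all other libraries lay at 346 or lower. Its log2 change was 1.51 (SE 0.40, limma adjusted p = 0.0420). An exon of Trim17 overlaps Hist3h2a on the same strand, and Trim17 had 24 and 51 in NC and 4 and 25 with Bromosporine. Hist3h2ba, the neighbouring H2B gene, had 9 and 14 in NC and 38 and 78 with Bromosporine, without overlap, and did not pass the test (log2 difference 2.18, SE 0.66, limma adjusted p = 0.0745). The number of histone genes called was 0 without Bromosporine replicate 1 or either NC library, 1 without Bromosporine replicate 2, and 0 with only the Bromosporine and NC libraries in the fit.

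The H1 sum was 113 and 139 in NC and 377 and 684 with Bromosporine, 4.21 times the NC mean, and 351 and 619 of it came from Hist1h1c. The H2A sum was 1042 and 1509, above the NC libraries at 588 and 769, and the H2B sum was 905 and 1414, above those at 524 and 722, with no test made of any sum. The H4 sum was 152 and 371, above the NC libraries at 84 and 147. The H3 sum was 324 and 585 and overlapped NC. By 3′ end, the median log2 difference was 1.24 for the 13 poly(A)-end genes, of which 13 were positive. In 8 of these both libraries lay above both NC libraries, against 26.4% of all genes. The median was 0.46 for the 13 stem-loop-end genes, with 9 positive, and 0.58 for the 17 others. The stem-loop-end median rests on single libraries, being 0.0043 without Bromosporine replicate 2 and -0.00080 without NC replicate 1. The summed value of the poly(A)-end genes was 1370 and 1999 with Bromosporine, 2.82 times the NC mean, and that of the stem-loop-end genes was 637 and 1087 and overlapped NC. Hist1h3c, which has a stem-loop end, had 73 and 164 with Bromosporine. Poly(A)-end medians also lay above stem-loop-end medians with OICR (0.49 and -0.39), IOX1 (0.27 and -0.29) and DZNep (0.22 and -0.31). The order was the same with CPTH2 and Garcinol and the reverse with Chaetocin, UNC0379 and Valproate. It is thus not particular to MS023 and Bromosporine.

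With Bromosporine 19% of all genes had an unadjusted p under 0.05. In these libraries 0 genes of histone gene transcription and 3′ end processing were called by limma, with 5 at an unadjusted p under 0.05, and 0 of the S phase list, with 1 at an unadjusted p under 0.05. Slbp had 3902 and 4631 with Bromosporine, above both NC libraries, with a log2 difference of 0.50 (SE 0.19, limma adjusted p = 0.153). Of the list of replication-independent histones, 0 of 11 were called by limma and 3 had an unadjusted p under 0.05, with a median log2 difference of 0.24. Of the markers of other cells, the trophoblast gene Eomes was called higher and Hand1 lower, and the 2-cell genes Zscan4c and Zscan4d and the fibroblast gene Col1a1 were called lower. Summed fibroblast markers were 24 and 12 and summed 2-cell markers 5 and 0 with Bromosporine, against 54 and 67 and 175 and 132 in NC. The part of other cells in the histone values was not tested.

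With DZNep, single genes of the Hist2 cluster rose and Hist3h2a fell, while most class sums overlapped NC. Hist2h2aa1, Hist2h2aa2 and Hist2h3c2 were called higher (3 of 43, 6.98%), against 5.27% of all genes. Hist2h2aa1 passed the filter only through DZNep, since UNC0379 replicate 1 (22) was the only other library at 10 or more. Its place in this count is thus a description. Hist3h2a, Hist1h2bk, Hist1h2ap and Hist2h2be were called lower (4 of 43, 9.30%), against 6.14%. Both DZNep libraries lay above both NC libraries in 12 genes, against 26.5% of all genes, and below in 10, against 32.4%. DZNep called many genes of every kind, and the shares among histone genes were near those of all genes.

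The 3 genes called higher lie within chromosome 3, 96238108 to 96246082. Hist2h2aa2, which encodes an H2A (96239749 to 96240276), had 54 and 23 in NC and 284 and 335 with DZNep. Its log2 change was 3.09 (SE 0.60, limma adjusted p = 0.00242). Hist2h3c2, which encodes an H3 and lies 621 bases from it (96238108 to 96239127), had 24 and 30 in NC and 175 and 247 with DZNep, with a log2 change of 2.91 (SE 0.83, limma adjusted p = 0.0219). Hist2h2aa1, the mirrored H2A copy (96245497 to 96246082), had 1 and 2 in NC and 44 and 60 with DZNep. Its log2 change of 4.42 (SE 1.25, limma adjusted p = 0.0200) rests on NC values near 0 and was 2.42 with a pseudocount of 10. All the 31-base stretches of both H2A copies occur in other genes (100%), and Gm20634, which holds 89.8% of those of Hist2h2aa1 and overlaps it on the same strand, had 3 and 6 in NC and 43 and 35 with DZNep. Hist2h3c2 has 64.2% of its stretches in Gm20634, Hist2h3b 80.6% and the chromosome 13 pseudogene Hist1h2al 79.9%. Without being called, Hist2h3b had 14 and 16 in NC and 32 and 66 with DZNep. Hist1h2al, not called either, had 14 and 17 in NC and 41 and 80 with DZNep. How reads were divided among these annotations is therefore uncertain. Hist2h2be, an H2B gene in the same cluster 14369 bases away, went the other way, with 102 and 105 in NC and 46 and 56 with DZNep. Its log2 change was -1.01 (SE 0.23, limma adjusted p = 0.00545).

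Hist3h2a had 197 and 175 in NC and 28 and 9 with DZNep, and the next lowest library of any group had 75. The log2 change was -3.45 (SE 0.40, limma adjusted p = 6e-05), the largest fall of a histone gene with DZNep. Trim17, which overlaps it, had 69 and 101 with DZNep, above both NC libraries. Hist1h2bk had 20 and 20 with DZNep (log2 change -1.62, SE 0.46, limma adjusted p = 0.0209). Hist1h2ap, an H2A gene with a stem-loop end, had 84 and 146 in NC and 40 and 49 with DZNep (log2 change -1.30, SE 0.40, limma adjusted p = 0.0304). Hist1h1c had 281 and 271 with DZNep, above both NC libraries, with a log2 difference of 1.53 that did not pass the test (SE 0.57, limma adjusted p = 0.0667). The H1 sum was accordingly 294 and 297, above both NC libraries, and without Hist1h1c its log2 ratio to NC turned from 1.23 to -0.65. The number of called genes was 2 without DZNep replicate 1 or NC replicate 2 and 4 without DZNep replicate 2 or NC replicate 1, and Hist2h2aa2 passed under each alternative tried. The sums of H2A (614 and 867), H2B (537 and 822) and H3 (373 and 610) overlapped NC, and the H4 sum (151 and 186) lay above it.

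Among related genes, H2afy, which encodes the variant macroH2A, fell with DZNep from 11674 and 9031 in NC to 2838 and 3137 (log2 change -1.78, SE 0.17, limma adjusted p = 1.86e-05). It was the single called gene of the 11 replication-independent histones. Of the 24 processing genes 0 were called and 9 had an unadjusted p under 0.05, against 35.4% of all genes. Cdk9, with 4135 and 3600, had a log2 difference of 0.42 (SE 0.14, limma adjusted p = 0.0421) that was under the fold required. Markers of other cells moved with DZNep too. Eomes and Krt8 of the trophoblast list and Col1a1 and Thy1 of the fibroblast list were called higher, the summed fibroblast markers were 426 and 340 against 54 and 67 in NC, Pdgfra and Dab2 of the primitive endoderm list were called higher and Gata4 lower, and the stem cell gene Zfp42 was called higher. Their part in the histone values was not tested.

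With Valproate, 1 histone gene was called. Hist2h2be had 102 and 105 in NC and 35 and 27 with Valproate, the lowest values of all 22 libraries. Its log2 change was -1.72 (SE 0.23, limma adjusted p = 0.000453), and it lost the call when only the Valproate and NC libraries were fitted (adjusted p = 0.112). Without Valproate replicate 2 the number of called genes was 3. This 1 of 43 genes (2.33%) compares with 2.55% of all genes called lower, and 0 were called higher, against 2.73%. Both libraries lay below both NC libraries in 14 of 43 genes, against 27.6% of all genes, and above in 1, against 23%. The median log2 difference was -0.42. The H2B sum was 280 and 502, below both NC libraries, and the H2A sum was 457 and 505, also below both. The H3 sum, at 172 and 294, lay below both as well, at 62.1% of the NC mean. The H1 sum was 152 and 276, above both. Thy1 and Lum of the fibroblast list and Pdgfra of the primitive endoderm list were called higher with Valproate, and their part was not tested.

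With the other 6 compounds limma called 0 histone genes. The background was low there too, with 0.0174% of all genes called for Chaetocin, 0.00579% for CPTH2, 0.00579% for Garcinol, 0.116% for IOX1, 0.388% for OICR and 0% for UNC0379. At an unadjusted p under 0.05 there was 1 histone gene with Garcinol (Hist1h2ai, lower) and 1 with UNC0379 (Hist2h2be, lower), and 0 with Chaetocin, CPTH2, IOX1 and OICR. The shares of all genes at that p were 3.62% with Garcinol, 6.08% with UNC0379, 4.72% with Chaetocin, 0.944% with CPTH2, 12.4% with IOX1 and 10.7% with OICR. Median log2 differences of the 43 genes lay between -0.29 with CPTH2 and 0.22 with UNC0379. The H3 sum lay below both NC libraries with IOX1 (127 and 274) and with OICR (171 and 292), without a test. With IOX1 all 10 tested H3 genes had negative log2 differences, with a median of -1.01 and an adjusted p of 0.402 or higher. When the replicate number was added to the fit, 1 histone gene, Hist1h3c, was called lower with IOX1, against 1.26% of all genes called.

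The replicate number went with the histone values in every group. The sum over the 62 genes was higher in the library numbered 2 than in that numbered 1 in 11 of 11 groups, with ratios from 1.13 to 1.63. The H3 ratio ran from 1.09 to 2.16 and the H4 ratio from 1.23 to 2.44. In a limma fit with group and number as terms, the median log2 difference of number 2 against 1 was 0.61 over the 43 genes, against 0.03 over all genes. Of the 43 genes, 19 (44.2%) had an adjusted p under 0.05, against 52.6% of all genes, so the share was not above the background. All 19 were higher in number 2, as were 5157 of the 9094 genes that passed in all. The fold passed 2 in 3 of them (6.98%), against 2.09% of all genes called higher, and 0 were called lower, against 1.95%. Leaving out single groups gave 1 (without IOX1) to 5 called genes (without DZNep or MS023), and a pseudocount of 10 gave 0.

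Hist1h1a, which encodes a linker histone, had a mean of 13.2 in number 1 and 25.6 in number 2, with a log2 change of 1.08 (SE 0.21, limma adjusted p = 0.00111). It was higher in number 2 in 10 of 11 groups and equal in NC. Hist1h3g, an H3 gene, had means of 11 and 24.6 and was higher in number 2 in 9 of 11 groups, MS023 and OICR being the exceptions (log2 change 1.04, SE 0.28, limma adjusted p = 0.00813). The third was Hist1h4a, an H4 gene, with means of 9.73 and 21.5. Casp8ap2, whose protein FLASH serves histone RNA, moved the opposite way, with 543 to 1650 in number 1 and 325 to 1214 in number 2 (log2 change -1.18, SE 0.15, limma adjusted p = 7.72e-05). The labels do not say what the number stands for. The stem-loop-end sum was higher in number 2 in 9 of 11 groups, the exceptions being MS023 (182 and 145) and Valproate (525 and 501).

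**Figure D4:**
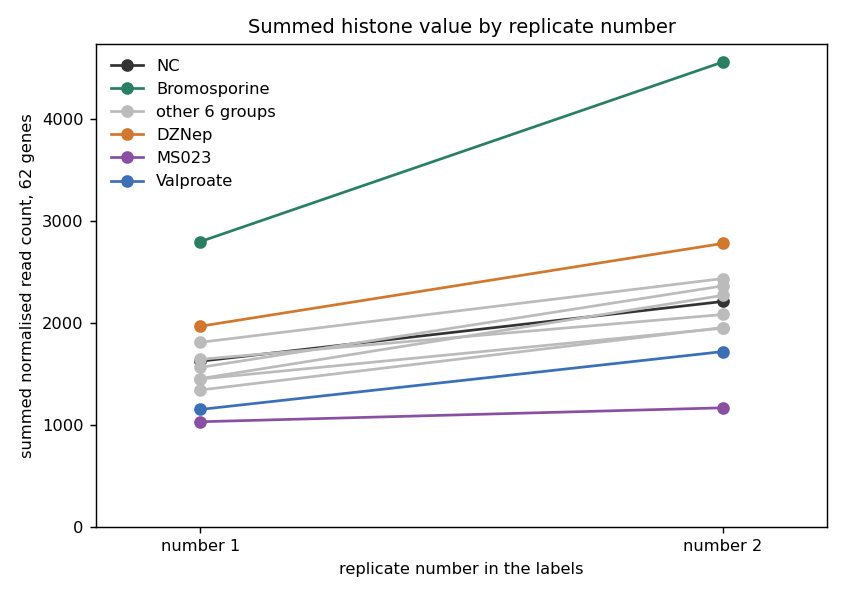
Summed normalised read count of the 62 histone genes in the library numbered 1 and the library numbered 2 of each group, joined by a line. All 11 lines rise, and the MS023 line, from 1031 to 1168, is the lowest at number 2.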

How the data were processed

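The deposited values are scores, here read counts that the authors normalized across libraries with EDASeq (full quantile) and rounded to whole numbers. The submitters' processing notes name bcl2fastq, Bowtie2 2.2.5, RSEM and mm10. The compounds are absent from the published methods, and whether reads were counted with RSEM or TEtranscripts was not stated. Full-quantile scaling hides depth and any change shared by most genes. The table of the authors' means was not used.

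Values were analysed as log2(value + 1) with limma 3.58.1 (R 4.3.3), 11 group means, variances with a trend on the mean and 11 residual degrees of freedom, for genes with at least 10 in at least 2 libraries (17275). Adjusted p-values are Benjamini-Hochberg over all genes within a contrast, two-sided. On simulated data for MS023, the fit called 83 of 100 genes changed by a log2 of 2 and 86 of 100 changed by 3, with 3 false calls. The changed genes were drawn from all genes tested, with independent noise and no effect of the replicate number. These rates therefore need not hold for the histone genes. No count test was run, since the values are not raw counts. No 2 libraries were identical.

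The histone genes and all gene lists were chosen with earlier results of these data known. Named histone genes are all those called, per class the one with the highest mean and the one with the smallest F-test p, and the largest called differences between replicate numbers. Hist1h3i, Hist1h4i, Hist1h4a, Hist1h4k, Hist3h2ba, Hist2h3b, Hist1h2ai, Hist1h2al and Hist1h2ad were named after their values were seen. Transcripts, 31-base stretches and ends came from GENCODE M21, a later annotation than the authors' Ensembl release, and promoters from RefSeq. Alternatives are listed with their effect in the closing section. Figures were drawn with matplotlib 3.10.9.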

Additional observations from a re-analysis of the deposited data

How the results depend on the processing

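The 14 called pairs of gene and compound were picked from these same values, with compound and NC libraries that did not overlap. Most alternatives could therefore not turn their direction, which held in all. The call held in 95 of 154 checks. Of the calls, Hist2h2aa2 with DZNep kept its place in 11 of 11. The replicate numbers are shared by all groups, but the labels do not say that a number marks a batch. Deviations from the group means correlated positively in all 55 pairs of groups, over 0.1 in 51 of them (lowest 0.05). By number, 52.6% of all genes had an adjusted p under 0.05 (limma). The main fit left the number out, and its counts depend on that choice. With the number as a replicate block, 7 histone genes were called with Bromosporine (main 2), against 6.88% of all genes. Of these, Hist1h3i was lower. With MS023 there were 13 (main 4, all 4 included), against 2.8% of all genes, and with IOX1 1 (Hist1h3c, main 0), against 1.26%. Under the block 22 in place of 11 histone genes varied over the groups. The share of all genes that varied under the block was not computed, so this count has no background. Against the mean of the other groups there were 5 with Bromosporine, 11 with MS023 and 2 with Valproate. Shares of all genes were not computed for these and the following counts, which show only how far the counts moved. Adjusting over all contrasts together gave 1 with Bromosporine and 3 with DZNep, and no filter on low values gave 1 with Bromosporine. Fits restricted to a compound and NC called 0 with Bromosporine, MS023 and Valproate and 3 with DZNep. Counting only genes that share under 50% of their sequence gave 0 with MS023 and 2 with DZNep. Leaving out single libraries, where the lone library of a group is assumed to vary like the others, gave 0 to 1 with Bromosporine, 2 to 4 with DZNep, 0 to 2 with MS023, 1 to 3 with Valproate, and 6 to 11 genes over the groups, with 6 without MS023 replicate 1. For the replicate number, 1 to 5 genes were called with single groups left out and 0 with a pseudocount of 10.

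Without the most abundant gene of the class, the log2 ratio of the sum with Bromosporine was 0.58 for H1, 0.60 for H2A and 0.60 for H3. With DZNep it was -0.65 for H1, 0.55 for H2A, -0.53 for H2B and 0.86 for H3, and with MS023 -0.98, -1.46, -0.88 and -1.56 in the same order. With single libraries left out, the Bromosporine ratios ran from 1.58 to 2.44 (H1), 0.62 to 1.15 (H2A), 0.54 to 1.18 (H2B), -0.21 to 0.64 (H3) and 0.40 to 1.68 (H4). Those of DZNep ran from -0.14 to 0.35 (H2A), -0.21 to 0.40 (H2B), -0.0096 to 0.70 (H3) and 0.20 to 1.00 (H4). Those of MS023 ran from -0.71 to -0.16 (H1), -1.06 to -0.68 (H2A), -2.27 to -1.81 (H3) and -0.95 to -0.14 (H4).

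The alternatives for the medians by 3′ end were chosen after seeing the data. With Bromosporine, the median over all tested histone genes was 0.97 against the mean of the other groups, 1.01 over those that share under 50%, and 0.14 to 1.24 with single libraries left out. That of poly(A)-end genes was 0.61 to 1.59 with single libraries left out. That of stem-loop-end genes was 0.22 with a pseudocount of 10, 0.74 against the other groups and -0.00080 to 0.71 with single libraries left out. With MS023, the median over all tested histone genes was -0.28 over those that share under 50%. That of poly(A)-end genes was -0.40 against the other groups and -0.45 to 0.23 with single libraries left out. That of stem-loop-end genes was -1.02 with a pseudocount of 10. No tested stem-loop-end gene shares under 50%, so that alternative gives no value for them. Of 160 counts for the 4 pathway lists, 156 stayed within 1.5 times, and the other 4 moved from 0 to 1 among the replication-independent histones. The cause of these differences was not tested. Unknown depth and values often under 100 limit all single-gene results.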
